A study of Mus musculus with 2 samples.

Results

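The eye-field and retinal progenitor genes Rax, Lhx2, Six3, Six6, Pax6, Nr2e1, Meis1, Fgf15 and Ccnd1 were followed in the retina of a Sox11-/- mouse embryo and of a wild-type littermate. All probe sets that the platform annotation ties to exactly 1 of these symbols were taken, which gave 20 probe sets for the 9 genes, out of 45037 probe sets on the array besides its controls. Both embryos were on a C57BL/6 background and were taken at embryonic day 18. Total RNA of the Sox11 knockout retina and of the wild-type retina was amplified and hybridised to 1 Affymetrix array each. Sox11, a SoxC transcription factor, is found in differentiating neurons, and the series asked which transcripts differ in the retina without it. How Sox11 was disrupted is not stated in the labels. With 1 array per genotype there is no replicate error and no test: all that follows compares 2 arrays, array and genotype cannot be told apart, and the number of arrays limits the precision.

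The vertebrate retina grows from the eye field, a patch of the anterior neural plate marked by homeodomain factors such as Rax, Pax6, Six3, Six6 and Lhx2. Retinal progenitors keep most of these factors while they divide, and several persist in differentiated cells: Pax6 in amacrine and ganglion cells, Rax and Lhx2 in Müller glia. Nr2e1 and Meis1 act in progenitors beside them, Fgf15 is a ligand that progenitors secrete, and Ccnd1 encodes cyclin D1, the main D-type cyclin of the retina, which drives progenitors through G1. In whole retina, fewer cells of a type and less RNA per cell cannot be told apart.

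Transcripts of these genes were close to level between the arrays. The log2 ratio (knockout minus wild type, taken on log2 of the intensity plus 5) ran from -0.15 for Six3 to 0.25 for Fgf15 over the 9 genes, where the probe set brightest over both arrays stands for its gene. The median was -0.05, beside -0.01 over all 11557 genes measured. No member gene was 1.5-fold higher or lower, a fold that 3.78% of all genes passed upward and 2.17% downward. With shares this small over all genes, 0 of 9 does not set the members apart. The median size of the log2 ratio, regardless of sign, was 0.08 over the 9 genes and 0.15 over all genes. Over the 7123 genes with an intensity of at least 109.4, a level that all 9 members reached, it was 0.13. The probe sets that stood for the members read 374.9 or more, so those genes were not matched to them in level.

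Of the 20 probe sets, 17 passed a low-value filter, which asks that the higher of the 2 intensities be at least 18.6, the pooled median of all probe sets. The 3 below it on both arrays were Six3 1426638_at, Pax6 1456342_at and Meis1 1459423_at. Among the 17, 9 had a positive and 8 a negative log2 ratio, beside 54.8% positive over all 23581 passing probe sets. The median size of the log2 ratio was 0.15 over the 17 and 0.17 over all passing probe sets. None of the 17 was 1.5-fold apart on the scale with 5 added to each intensity. Of all passing probe sets, 6.29% were that much higher and 2.15% that much lower. Each of the 17 also lay within the central 95% of the log2 ratios of the 1000 probe sets nearest to it in level, a range that describes these 2 arrays only. The count depends on the scale for 1 dim probe set, Pax6 1437816_at, which was 1.5-fold lower after quantile normalization, after loess and without a pseudocount, so that 1 of the 17 was then past the fold.

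**Figure D1:**
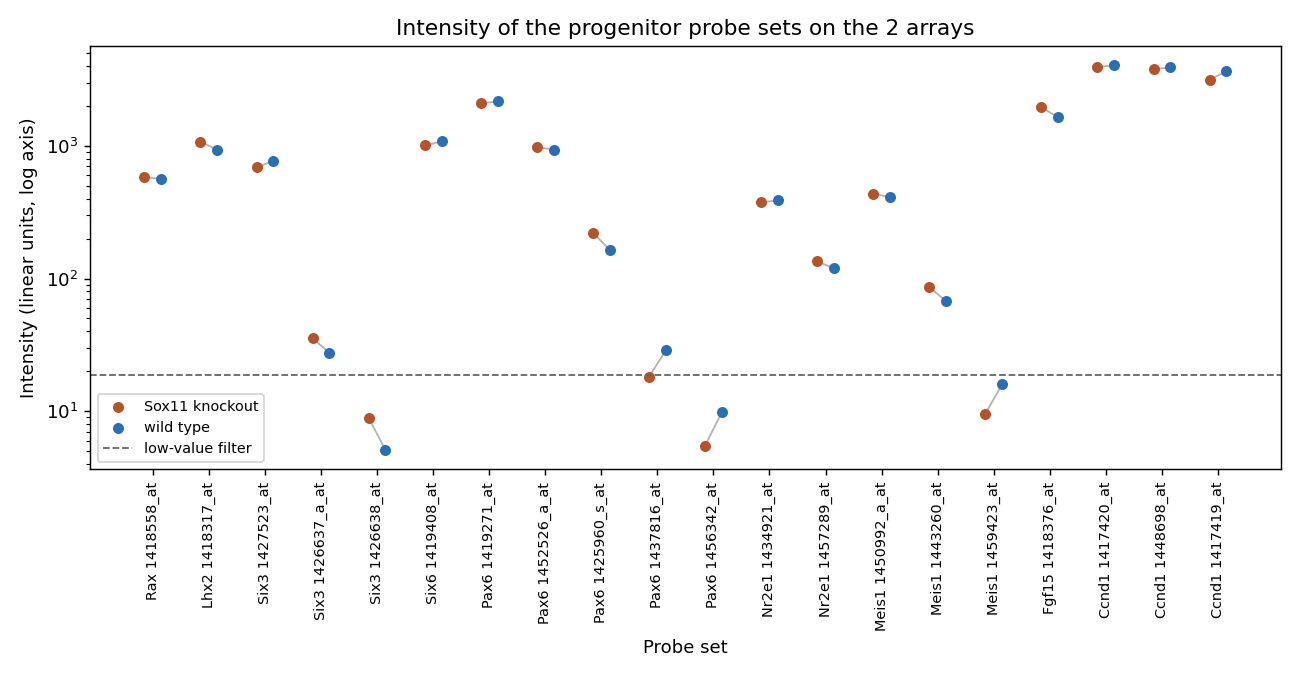
Intensity of each of the 20 probe sets (linear units, log axis) on the Sox11 knockout array (left point of each pair) and on the wild-type array (right point), with the low-value filter of 18.6 as a dashed line. The pairs are nearly flat for the bright probe sets and slope most for those near or below the filter.

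Among the homeodomain factors that define the eye field, Rax, which is required for the eye to form, was measured by 1 probe set. It read 578.9 on the knockout array and 564.8 on the wild-type array, a log2 ratio of 0.04. Lhx2, a LIM homeodomain factor needed for optic vesicle patterning and for keeping progenitors, also had 1 probe set. Its intensity was 1071.6 in the knockout and 935.6 in the wild type, a log2 ratio of 0.19. The central range at that level ran from -0.36 to 0.33. Rax and Lhx2 were thus slightly brighter on the knockout array, each inside the range of probe sets of like level.

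The sine oculis homeodomain factors Six3 and Six6 are close relatives, the first acting in forebrain and eye field specification and the second in progenitor proliferation. Six3 1427523_at read 691.5 in the knockout and 767.3 in the wild type, a log2 ratio of -0.15. The much dimmer 1426637_a_at went the other way, with 35.4 and 27.6 and a log2 ratio of 0.31, and 1426638_at stayed under the filter at 8.9 and 5.1. The sign for Six3 therefore depends on the probe set. Six6 had a single probe set, at 1006.3 in the knockout and 1078.6 in the wild type, a log2 ratio of -0.10. Both genes were a little dimmer on the knockout array by their brightest probe set.

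Pax6, a paired-domain and homeodomain factor of progenitors, amacrine cells, ganglion cells and lens, was measured by more probe sets than any other member, 5 in all. The brightest, 1419271_at, read 2085.8 in the knockout and 2160.9 in the wild type, a log2 ratio of -0.05. The next, 1452526_a_at, read 978.5 and 937.7, a log2 ratio of 0.06, so the brightest pair of Pax6 probe sets stood on opposite sides of zero by little. The dimmer probe sets were further apart. Pax6 1425960_s_at had 221.4 in the knockout and 164.7 in the wild type, a log2 ratio of 0.42 against an upper limit of 0.50 at its level. Pax6 1437816_at had 18.1 in the knockout, just below the filter, and 28.7 in the wild type. With 5 added to both intensities that is a log2 ratio of -0.54, inside the lower limit of -0.62 at its level. Without that addition the log2 ratio was -0.67, past 1.5-fold. With the addition it was also past 1.5-fold after quantile normalization (-0.67) and after loess (-0.72). The wild-type intensity was 1.54 times the filter value. Whether this dim probe set passed 1.5-fold thus depends on the settings. The last, 1456342_at, was under the filter with 5.5 and 9.8. Pax6 thus gave 2 positive and 2 negative passing probe sets, 0.96 log2 units from lowest to highest. Over the 5 members with several passing probe sets, their log2 ratios scattered within a gene with a pooled SD of 0.29, and over all 5612 such genes with 0.26. Both SDs include dim probe sets. As reported here, the log2 ratio of each of the 9 genes was smaller than either SD, with Fgf15 closest at 0.25. That did not hold in every setting. Fgf15 had 0.32 after quantile normalization and 0.33 after loess, and Meis1 had 0.34 without probe sets with s, x or a in the suffix.

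**Figure D2:**
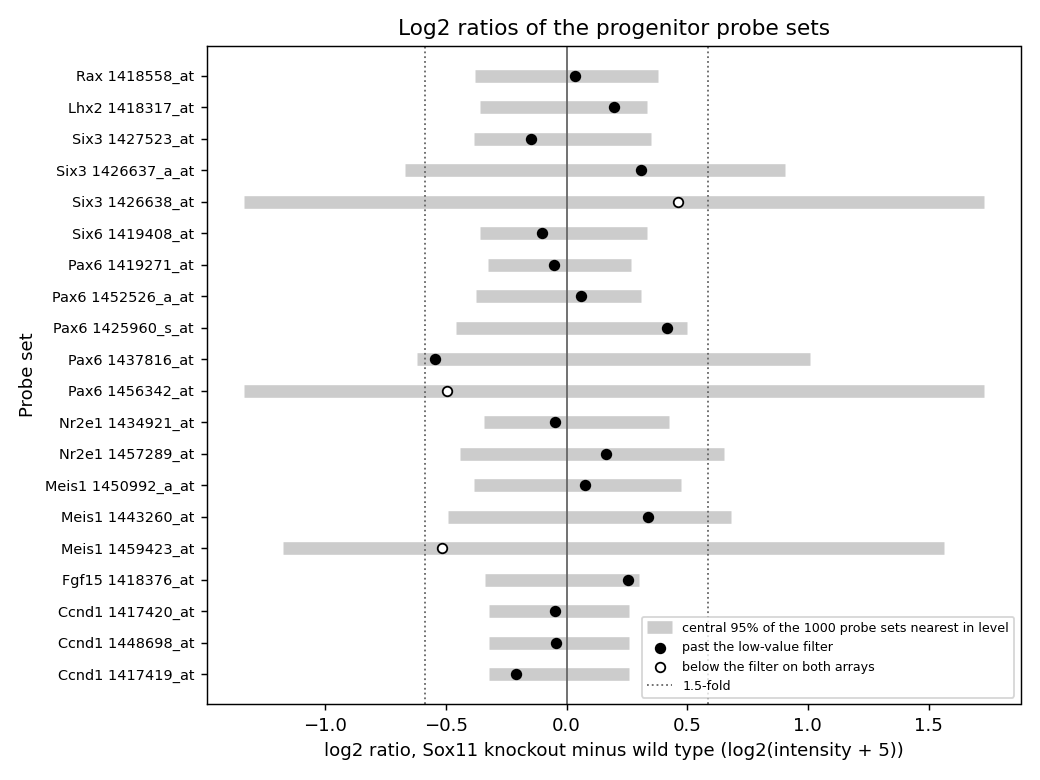
Log2 ratio (Sox11 knockout minus wild type, from log2 of the intensity plus 5) of each probe set, filled where it passed the low-value filter and open where it did not. Grey bars span the central 95% of the 1000 passing probe sets nearest in level, and dotted lines mark 1.5-fold. All 17 filled points lie on their bars, and the bars widen as the level drops.

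Letters of the kind that Sox proteins bind were looked for upstream of the members, and the Pax6 windows are shown because Pax6 has 2 annotated starts and the widest disagreement between probe sets. The promoter table, from RefSeq with build GRCm38.p6, held 8 windows for 6 of the 9 genes. The 250 bases before each start were searched for ACAAAG and ACAATG, the cores of a Sox site, on both strands (CTTTGT and CATTGT on the other), words that do not contain one another. Of the 8 windows, 2 held a match, or 25%, and of all 32851 windows 25.2% did, so the members held it about as often as promoters at large. The first Pax6 window, chr2:105668646-105668895 on the + strand, ends where the annotated gene begins and holds no match. The second, chr2:105682213-105682462 on the + strand, lies inside the Pax6 gene before an internal start and holds ACAAAG beginning 154 bases before that start. In Meis1, CATTGT begins 48 bases before a start, and 30 bases around it are given, chr11:19019000-19019029 on the - strand. Capitals mark the match, and each sequence runs 5′ to 3′.
Pax6, first start: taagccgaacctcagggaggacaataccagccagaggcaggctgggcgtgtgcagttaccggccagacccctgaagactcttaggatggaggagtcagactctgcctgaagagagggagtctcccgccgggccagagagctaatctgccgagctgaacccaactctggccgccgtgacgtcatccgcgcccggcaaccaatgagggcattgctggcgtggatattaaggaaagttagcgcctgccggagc
Pax6, internal start: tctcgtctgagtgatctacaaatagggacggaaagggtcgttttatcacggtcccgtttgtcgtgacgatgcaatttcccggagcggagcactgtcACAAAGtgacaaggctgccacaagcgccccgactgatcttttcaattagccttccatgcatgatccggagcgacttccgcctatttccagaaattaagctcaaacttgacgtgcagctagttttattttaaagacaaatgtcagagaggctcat
Meis1: tgcagcccaatgCATTGTgtaagacgcgac
The first Pax6 window had 60.8% G and C and the internal one 47.6%, the lowest of the 8. A match describes the letters and not binding, and which start a Pax6 probe set reads was not tested.

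The remaining transcription factors were level too. Nr2e1, or Tlx, is an orphan nuclear receptor that represses transcription in neural and retinal progenitors. Its brighter probe set, 1434921_at, read 374.9 in the knockout and 388.2 in the wild type, a log2 ratio of -0.05. Its other probe set, 1457289_at, read 134.6 and 119.5, a log2 ratio of 0.17, so the sign for Nr2e1 also depended on the probe set. Meis1 is a TALE homeodomain factor that binds DNA together with Pbx proteins and acts upstream of Pax6 in lens development. Meis1 1450992_a_at read 434.5 in the knockout and 411.4 in the wild type, a log2 ratio of 0.08, and 1443260_at read 86.4 and 67.4, a log2 ratio of 0.34. Both passing Meis1 probe sets were therefore brighter in the knockout, the dimmer one by more, while the third, under the filter with 9.6 and 15.9, leaned the other way.

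The secreted ligand was a little brighter in the knockout, and the cyclin was level. Fgf15, the mouse counterpart of human FGF19 and a secreted product of retinal progenitors, had the highest ratio of the 9 genes. Its 1 probe set read 1954.3 in the knockout and 1639.4 in the wild type, a log2 ratio of 0.25 against an upper limit of 0.30 at its level. Ccnd1 was read by 3 bright probe sets, and all 3 were dimmer on the knockout array. Their intensities were 3925.1 in the knockout and 4055.0 in the wild type for 1417420_at, and 3783.5 and 3899.1 for 1448698_at, with log2 ratios of -0.05 and -0.04. The third, 1417419_at, read 3150.0 and 3643.4, a log2 ratio of -0.21 against a lower limit of -0.32. After quantile normalization or loess the ratio of 1417420_at was positive, at 0.01 and 0.05, so no direction can be given for Ccnd1. Fgf15 and Ccnd1 are neighbours on mouse chromosome 7, with 3 annotated genes between them in GRCm38.p6, 1 of them protein-coding.

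**Figure D3:**
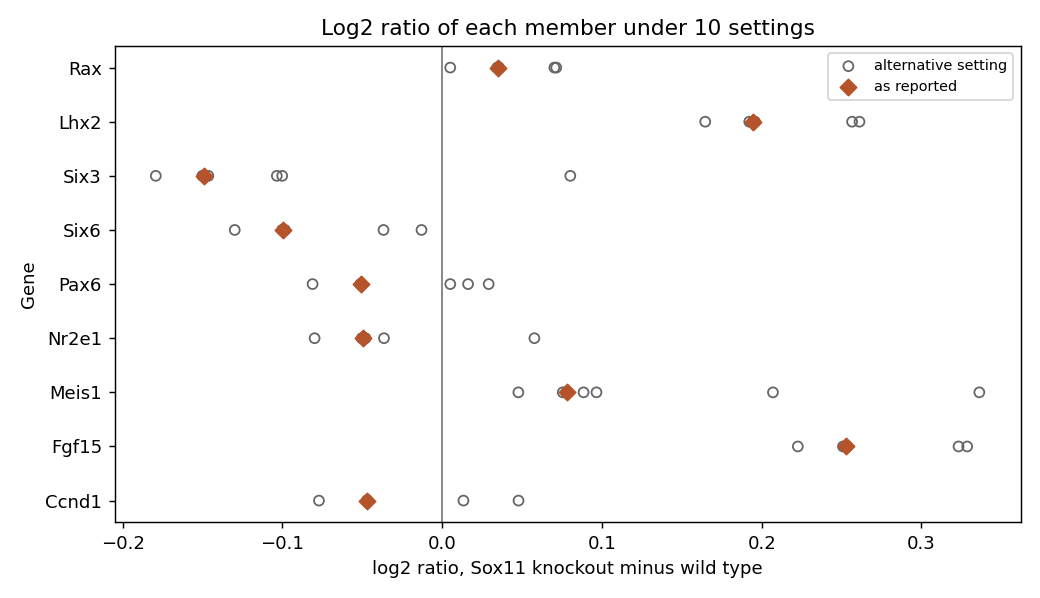
Log2 ratio of each of the 9 genes (Sox11 knockout minus wild type) as reported (diamonds) and under 9 alternative settings of scaling, pseudocount, filter and choice of probe set (open circles). Every value lies between -0.18 and 0.34; Rax, Lhx2, Meis1 and Fgf15 stay positive and Six6 negative, while Six3, Pax6, Nr2e1 and Ccnd1 cross zero.

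Partners of the members were taken from 6 lists of genes by role. Over all 11557 genes measured, 47.7% had a positive log2 ratio. For 11 further progenitor genes the median log2 ratio was -0.06, with 5 positive and 6 negative and 1 past 1.5-fold by its brightest probe set. That was Sfrp2, a secreted Wnt antagonist, at 564.9 in the knockout and 327.8 in the wild type with a log2 ratio of 0.78. Nes, the intermediate filament nestin, had 0.43 and Id3, an inhibitor of bHLH factors, -0.36. Sox2, a SoxB1 factor that keeps neural progenitors, read 1409.4 and 1329.1, a log2 ratio of 0.08, and Hes1 and Hes5, the Notch targets, had -0.06 and -0.25. The other Hes5 probe set gave -0.45. Id2, counted at -0.06, had 3 passing probe sets that ran from -1.09 to 0.28.

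Genes that work with Six3, Six6 and their relatives had ratios further from zero than Six3 and Six6, but most were also much dimmer. The difference was not tested, and no central range at like level was taken for these genes. Among the members, that range ran from -0.38 to 0.35 around Six3 1427523_at. Around the dim Six3 1426637_a_at it ran from -0.67 to 0.91. The ratios of Eya1 and Eya4 lay inside the wider range, and that of Dach2 lay below it. Of 9 genes of the sine oculis homeobox, Eya and Dach families, 7 were measured, 5 with a positive ratio, with a median of 0.37; Six4 and Eya2 were under the filter on both arrays. Eya4, an Eya coactivator, read 32.2 in the knockout and 16.8 in the wild type, a log2 ratio of 0.77 and at least 1.73-fold against the filter value. Eya1, another coactivator, had 67.2 and 44.5, a log2 ratio of 0.54. Dach2, a transcriptional cofactor of the same network, went the other way with 34.9 and 67.6, a log2 ratio of -0.86. By the brightest probe set, 1 of the 7, Eya4, was 1.5-fold higher and 1, Dach2, was 1.5-fold lower. Eya3, counted at -0.16, near the -0.15 of Six3, had 3 passing probe sets that ran from -0.16 to 0.60. Its sign therefore depended on the probe set, and the highest was past 1.5-fold. With a pseudocount of 18.6, Eya4 had 0.52 and was no longer past 1.5-fold, and without a pseudocount Eya1 passed it with 0.59. Most of these genes were dim, and Six2 and Eya4 reached the filter on the knockout array alone. Dach1, the brightest, had 373.5 and 322.0, a log2 ratio of 0.21.

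The cofactors of Meis1 and Lhx2 stayed near the members by their brightest probe sets. None of the 8 measured TALE homeobox genes was 1.5-fold apart, and their median log2 ratio was -0.04. Pknox2 had -0.30, Pbx3, a partner of Meis proteins, 0.22, and Meis2 -0.22, from a probe set that read 789.0 in the knockout and 923.0 in the wild type. The 4 passing Meis2 probe sets ran from -0.37 to 1.01, so their disagreement was wider than any difference named here for TALE genes. Among 7 measured LIM domain cofactors the median was -0.13, again with none past 1.5-fold by its brightest probe set. The 4 passing Ssbp2 probe sets ran from -0.13, the brightest, to 0.85, and the 2 of Ssbp3 from -0.25 to -0.01. Lmo4, a LIM-only protein that competes for Ldb1, had -0.35, Ssbp3 -0.25, and Ldb1, the adaptor that Lhx2 binds, 0.16.

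On the FGF side, 13 of 19 listed genes were measured, with a median log2 ratio of -0.09. On the scale with 5 added, 1 was 1.5-fold higher and 2 were lower, but all 3 were dim and these counts depended on the settings. Fgfr2, a receptor, read 65.7 in the knockout and 40.8 in the wild type, a log2 ratio of 0.63, and its other probe set gave 0.52. It was not past 1.5-fold after quantile normalization (0.53), after loess (0.54), with a pseudocount of 18.6 (0.51) or by the median over its probe sets (0.57). Etv4 and Spry4, a transcription factor and a feedback inhibitor that FGF signalling induces, were the dimmer pair, and both passed the filter on the wild-type array alone. Etv4 read 2.1 in the knockout and 22.3 in the wild type, at least 1.20-fold lower against the filter value, so its 1.5-fold call rests on a knockout value below the filter. Spry4 read 16.5 and 30.8, at least 1.66-fold lower, and its log2 ratio was -0.74, or -0.49 with a pseudocount of 18.6. Among brighter genes of the same feedback, none was past 1.5-fold and only Spred2 was positive. The ratios were -0.08 for Dusp6, -0.09 for Spry1, -0.19 for Spry2, -0.22 for Etv5, -0.10 for Spred1 and 0.24 for Spred2. The sign depended on the probe set for Spred1, from -0.17 to 0.19, and for Spred2, from -0.25 to 0.24.

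All 17 listed G1 genes were measured and none was 1.5-fold apart, with a median log2 ratio of -0.03. Cdk4 and Cdk6, the kinases that cyclin D1 activates, had -0.28 and -0.37, and the cyclin genes Ccnd2 and Ccnd3 had -0.02 and 0.38. Cdkn1c, the cell cycle inhibitor p57, read 456.2 in the knockout and 320.4 in the wild type, a log2 ratio of 0.50. Cdkn1b, the inhibitor p27, had 0.10.

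**Figure D4:**
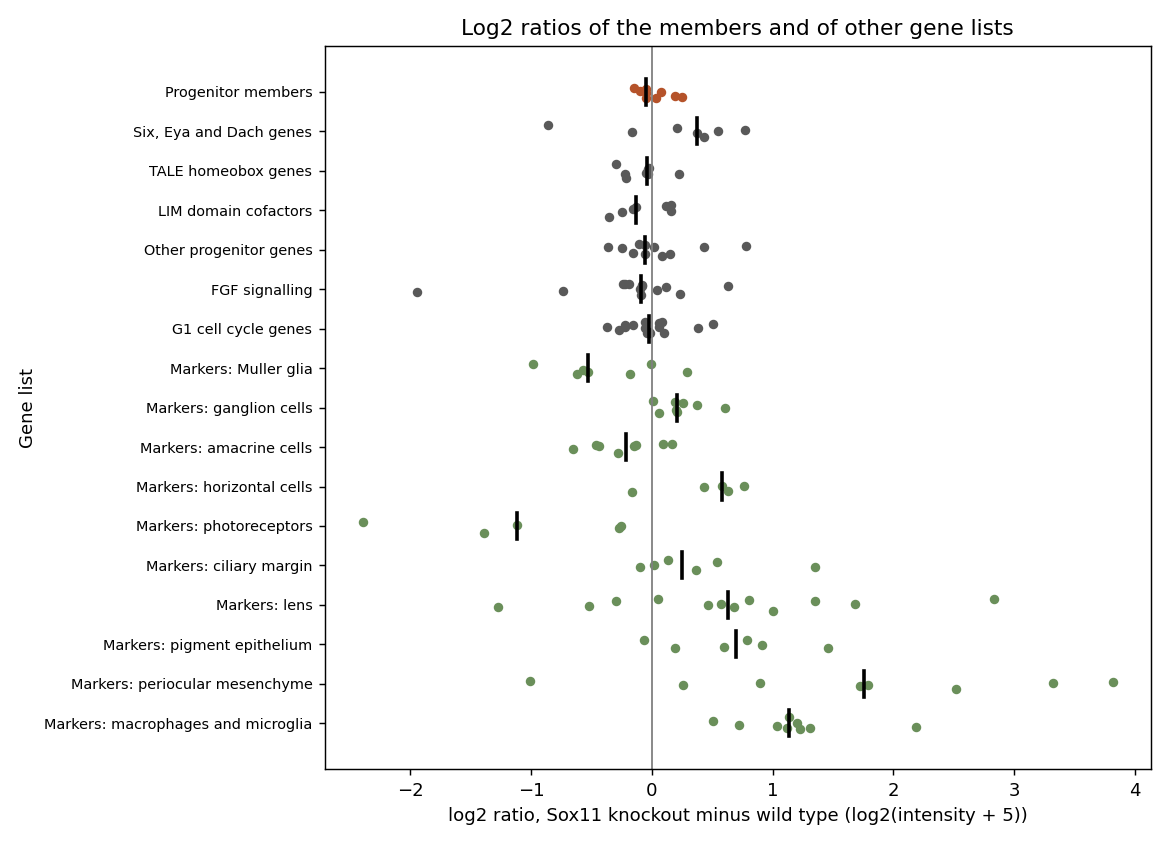
Log2 ratio (Sox11 knockout minus wild type, from log2 of the intensity plus 5) of each measured gene in the 9 members, the 6 lists of related genes and 10 lists of cell type markers, with black bars at the medians. The members lie within -0.15 and 0.25, with a median of -0.05, and the periocular mesenchyme list has the highest median, 1.75.

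Other facts of the arrays stand beside these values. Of the 6 Sox11 probe sets, 5 were lower in the knockout, with log2 ratios from -3.64 to 1.08, and a probe set outside the deleted part would not check the genotype. Marker genes of neural retina counted as measured where they passed the filter on at least 1 array. All 8 annotated ganglion cell markers had a median log2 ratio of 0.20, 8 of 8 amacrine markers -0.21 and 7 of 8 Müller glia markers -0.53. Whether Müller glia were present at embryonic day 18, or other cells gave the signal of the Müller glia markers, was not tested. The 5 horizontal cell markers had 0.58, with Onecut1 under the filter in the wild type (14.1). The 5 annotated photoreceptor markers had -1.12, with Pde6b under the filter in the knockout (10.8). Both Onecut1 and Pde6b were thus measured only through the array where they were higher. The 6 ciliary margin markers had a median of 0.25. Tissues around the retina were also read, and beside their counts 47.7% of all genes measured were higher in the knockout. The summed intensity of 10 annotated periocular mesenchyme markers was 674.5 in the knockout and 243.5 in the wild type, with Foxc2 and Twist1 under the filter on both arrays. Of the 8 measured, 7 were higher in the knockout, but 6 were under the filter in the wild type and so were measured only because the knockout was higher. For 10 macrophage and microglia markers the sums were 752.0 and 344.2, with 9 of 9 measured higher, 2 of these under the filter in the wild type, and Aif1 under it on both arrays. For 13 lens markers they were 836.6 and 673.9, with 9 of 12 higher, 3 of these under the filter in the wild type, and Foxe3 under it on both arrays. For 8 pigment epithelium markers they were 423.7 and 284.1, with 5 of 6 higher, 2 of these under the filter in the wild type, and Rpe65 and Slc45a2 under it on both arrays. Lens also expresses Pax6 and Six3, and mesenchyme around the eye expresses some sine oculis homeobox and Eya genes; the part of these tissues in the values of the members or of their partners was not tested. The embryos also differed in sex-linked transcripts, with Xist at 922.7 in the knockout and 12.3 in the wild type and Eif2s3y at 4.7 and 214.0. With 1 array per genotype, a difference by sex and a difference by genotype cannot be told apart in any of these ratios.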

How the data were processed

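Intensities are the authors' deposited probe set values, linear, 1 per probe set and array; the software is not given in the sources used here. Per the labels' protocols, RNA was amplified from an oligo-dT primer and labelled with biotin. On both arrays the mean after leaving out 2% at each end was 100. The 64 controls were left out, and no further normalization was applied. Values were turned to log2(intensity + 5) and subtracted, which understates changes of low genes. The low-value filter was 18.6, without detection calls. GEO's platform annotation named 34945 probe sets with 1 symbol; 932 had several symbols and 9160 had none, and these stay unnamed. A gene took the value of its brightest passing probe set. There was no test. Members, lists and settings were chosen with earlier results of these data known. Named partners were the 3 of each list with the largest ratio. Added after their values were seen were Sox2, Hes1, Hes5, Id2, Six2, Eya3, Dach1, Ssbp2, Dusp6, Spry1, Spry2, Etv5, Spred1, Spred2, Cdk4, Ccnd2 and Cdkn1b. The calculation was tested on simulated data (Python 3.11.15, numpy 2.4.6, pandas 2.3.3, statsmodels 0.14.6).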

Additional observations from a re-analysis of the deposited data

How the results depend on the processing

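Alternatives to the scaling were loess (span 0.3), quantile normalization and a median log2 ratio set to 0. The others were a pseudocount of 0 or 18.6, no low-value filter or one at 109.4, no probe sets with s, x or a in the suffix, and each gene's median over its probe sets. The count of member genes past 1.5-fold was 0 in every one of them, and all 81 recomputed gene ratios moved by less than 0.26, the pooled within-gene SD. Many of these ratios could not move. The filter settings kept the brightest probe set of every member, and Rax, Lhx2, Six6 and Fgf15 have only 1 passing probe set to choose. Where the suffix rule replaced the probe set, for Meis1, the ratio went from 0.08 to 0.34, close to that limit. The member median ran from -0.08 to 0.06 and changed sign. The count of member probe sets 1.5-fold lower was 1 after quantile normalization, after loess and without a pseudocount, each time Pax6 1437816_at (-0.67, -0.72 and -0.67). Among the related genes, the 1.5-fold calls of Eya4, Fgfr2 and Spry4 were lost and that of Eya1 gained in settings named above. Etv4 ran from -3.41 to -0.98. Without probe sets with s, x or a in the suffix, Meis2 was 1.01 and the LIM cofactor median was 0.16. That setting leaves out the probe sets that stood for Meis2, Ldb1, Ldb2, Lmo2, Lmo4, Ssbp2 and Ssbp3. Under it, Ldb1, Lmo4 and Ssbp3 had no value. The cause of the other shifts was not tested. These list and partner values were recomputed as an addition after the data were seen. No paired analysis was possible because each genotype has 1 array. Signal near the filter limits what the dim probe sets of Six3, Pax6 and Meis1 can show.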
